A study of Mus musculus with 4 samples.

Results

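The inhibitory immune checkpoint receptors and the ligands of PD-1 were followed in the immune cells of mouse mammary tumors as 10 genes of the 32285 in the raw count table. The rule lists the members by name and uses no measured value, although they were listed with earlier results of these data known: the receptors Pdcd1 (PD-1), Ctla4, Lag3, Havcr2 (TIM-3), Tigit and Cd160, the transcription factor Tox, the ectoenzyme Entpd1 (CD39), and the ligands Cd274 (PD-L1) and Pdcd1lg2 (PD-L2). The tumors were grown from EO771, a mammary carcinoma cell line of the C57BL/6 strain, in the fourth mammary gland of female mice and were taken at 1.5 cm3. There were 2 tumors of Csf1r fl/fl mice, the controls, and 2 of Lyve1Cre Csf1r fl/fl mice, so that both groups carried the floxed Csf1r alleles and differed in the Cre. The Lyve1 promoter drives this Cre and is known to be active in lymphatic endothelium as well as in LYVE-1-positive macrophages. The age of the tumor-bearing mice is not given in the sources used here. Viable CD45+ cells were sorted, tagged with a hashtag antibody per tumor, and run as 2 pools of 1 tumor of each genotype, so that a replicate number is also a run. Values of the 4 tumors are given below in one order throughout: Csf1r fl/fl replicates 1 and 2, then Lyve1Cre Csf1r fl/fl replicates 1 and 2.

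PD-1 is an inhibitory receptor that T cells place on their surface after activation, and it dampens signals from the T-cell receptor when it meets PD-L1 or PD-L2 on another cell. CTLA-4 competes with the activating receptor CD28 for CD80 and CD86 on antigen-presenting cells, LAG-3 binds MHC class II, TIM-3 has several ligands including galectin-9, TIGIT binds the poliovirus receptor family, and CD160 binds TNFRSF14. T cells that are stimulated for a long time, as in tumors, keep several of these receptors under a program that depends on the factor TOX, while a Tcf7-expressing subset keeps the capacity to renew itself.

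The genes of both ligands lie side by side, and the RefSeq promoter windows of this pair (GRCm38.p6, plus strand, 250 bases before to 50 after the start) are shown because both genes were higher in neutrophils than in monocytes and in mature than in Cd209a dendritic cells, as given below. Capitals mark a match to the NF-kB consensus, a motif of the factors that switch on inflammatory genes.
Cd274, chr19:29367188-29367487: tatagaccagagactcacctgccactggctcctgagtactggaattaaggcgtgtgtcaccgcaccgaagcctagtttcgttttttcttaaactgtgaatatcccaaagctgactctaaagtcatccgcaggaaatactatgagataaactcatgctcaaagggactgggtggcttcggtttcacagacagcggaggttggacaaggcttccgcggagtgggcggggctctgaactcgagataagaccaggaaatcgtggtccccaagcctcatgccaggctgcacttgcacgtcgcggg
Pdcd1lg2, chr19:29410669-29410968: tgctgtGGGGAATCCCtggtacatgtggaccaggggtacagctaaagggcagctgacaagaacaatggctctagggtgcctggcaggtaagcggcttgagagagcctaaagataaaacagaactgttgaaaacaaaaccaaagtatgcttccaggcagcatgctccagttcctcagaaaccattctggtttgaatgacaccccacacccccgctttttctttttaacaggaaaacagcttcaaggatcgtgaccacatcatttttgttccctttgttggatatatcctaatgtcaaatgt

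The Pdcd1lg2 window held 1 match to the NF-kB consensus, at bases 7 to 16 of the window, 244 bases before the start, and the Cd274 window held none of the 5 motifs searched on both strands. These were the interferon-stimulated response element (in 3.44% of 32851 RefSeq promoters of this length), the gamma-activated site TTCNNNGAA (8.30%), the NF-kB consensus (8.46%), the AP-1 site TGANTCA (7.81%) and the NFAT core TGGAAA (21.4%). Of the 10 members 8 had a promoter in the table, with 10 promoters in all. Among the others, a Ctla4 promoter held an NFAT core at bases 107 to 112, the Havcr2 promoter an AP-1 site at bases 51 to 57, and a Cd160 promoter a gamma-activated site at bases 17 to 25 and an NF-kB match at bases 119 to 128. A match is a run of letters in a window, and no binding was measured.

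All 10 members are protein-coding genes in GENCODE vM21 on mm10 (GRCm38). On chromosome 1, Ctla4 covers 60887000 to 60915832 on the plus strand and Pdcd1 94038305 to 94052553 on the minus strand. Cd160 lies on chromosome 3 (96798763 to 96829351, minus), Tox on chromosome 4 (6686353 to 6991557, minus), Lag3 on chromosome 6 (124904361 to 124911705, minus), Havcr2 on chromosome 11 (46454935 to 46481255, plus) and Tigit on chromosome 16 (43648867 to 43664146, minus). Chromosome 19 carries Entpd1 (40612366 to 40741602, plus), Cd274 (29367455 to 29388095, plus) and Pdcd1lg2 (29410919 to 29471161, plus), with 22823 bases between the end of Cd274 and the start of Pdcd1lg2. Cd160 overlaps Pdzk1 on the other strand, and Tox, Cd274 and Pdcd1lg2 each overlap an antisense gene. On the same strand, Ctla4 overlaps the pseudogene Rpl18-ps1, and Entpd1 the pseudogenes Gm16027 and Gm8783 and the intronic gene AC166063.1. How the counting used strand is not given in the sources used here, so reads of these pairs may not be told apart, and those of the same strand not by strand.

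Of 53361 barcodes in the raw table, 28429 (53.3%) were kept by the submitters, and 28418 of them had a higher hashtag and so a tumor. The tumors held 4771 to 8613 cells with a median of 3718 to 4668 UMIs (unique molecules) a cell. The higher hashtag was under 3 times the lower in 5.89% and 2.43% of the cells of run 1 and in 0.218% and 0.293% of those of run 2, and 60 barcode sequences occurred among the kept cells of both runs. Csf1r, the floxed gene, measured 1.83, 2.37, 1.39 and 1.68 UMIs per 10000 in C1q macrophages and 2.33, 2.36, 1.58 and 1.46 in monocytes. It measured 1.08, 0.806, 0.473 and 0.57 in neutrophils and 0.408, 0.232, 0.103 and 0.0714 in mature dendritic cells. In each of these gates both Lyve1Cre tumors lay below both controls, but not in Arg1 macrophages (1.55, 2.47, 1.69 and 1.6). A 3' tag may lie outside the deleted part, so that these values do not check the deletion. Lyve1 reached at most 3 UMIs a tumor in the C1q and Arg1 macrophage, monocyte, neutrophil and mature dendritic gates. The submitters had left out 4 clusters made up almost wholly of cells of the Lyve1Cre tumor of run 2, described in the study as lymphocytes rich in ribosomal transcripts, and each edgeR test between gates or genotypes was also computed without each tumor.

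Cell types were gated on lineage transcripts that include no member, and 15 of 16 gates had at least 20 cells in every tumor. T cells carried 2 or more UMIs of Cd3d, Cd3e and Cd3g and were split by Cd8a and Cd8b1, Foxp3, Cd4 and Trdc. NK cells, neutrophils, monocytes, macrophages high in C1q or in Arg1, and 4 kinds of dendritic cell (Cd209a, mature, cDC1 and plasmacytoid) were gated by their own transcripts. Ungated cells were 18.4% and cells with markers of 2 lineages 8.27%. Most genes kept back to check the gates were highest in their own gate, with 1 gate going against its name. The T cells with Cd4 but no Foxp3 UMI, meant as conventional CD4 T cells, held Ikzf2 at 10.2, Il2ra at 2.30 and Tnfrsf18 at 6.30 UMIs per 10000, near the Treg values of 15.3, 4.21 and 7.82, and are therefore called the Cd4+ Foxp3- gate. Levels are UMIs per 10000 UMIs of a gate in a tumor, a scale on which 1 gene can be compared between gates but different genes cannot be ranked, since tags per molecule differ.

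**Figure D1:**
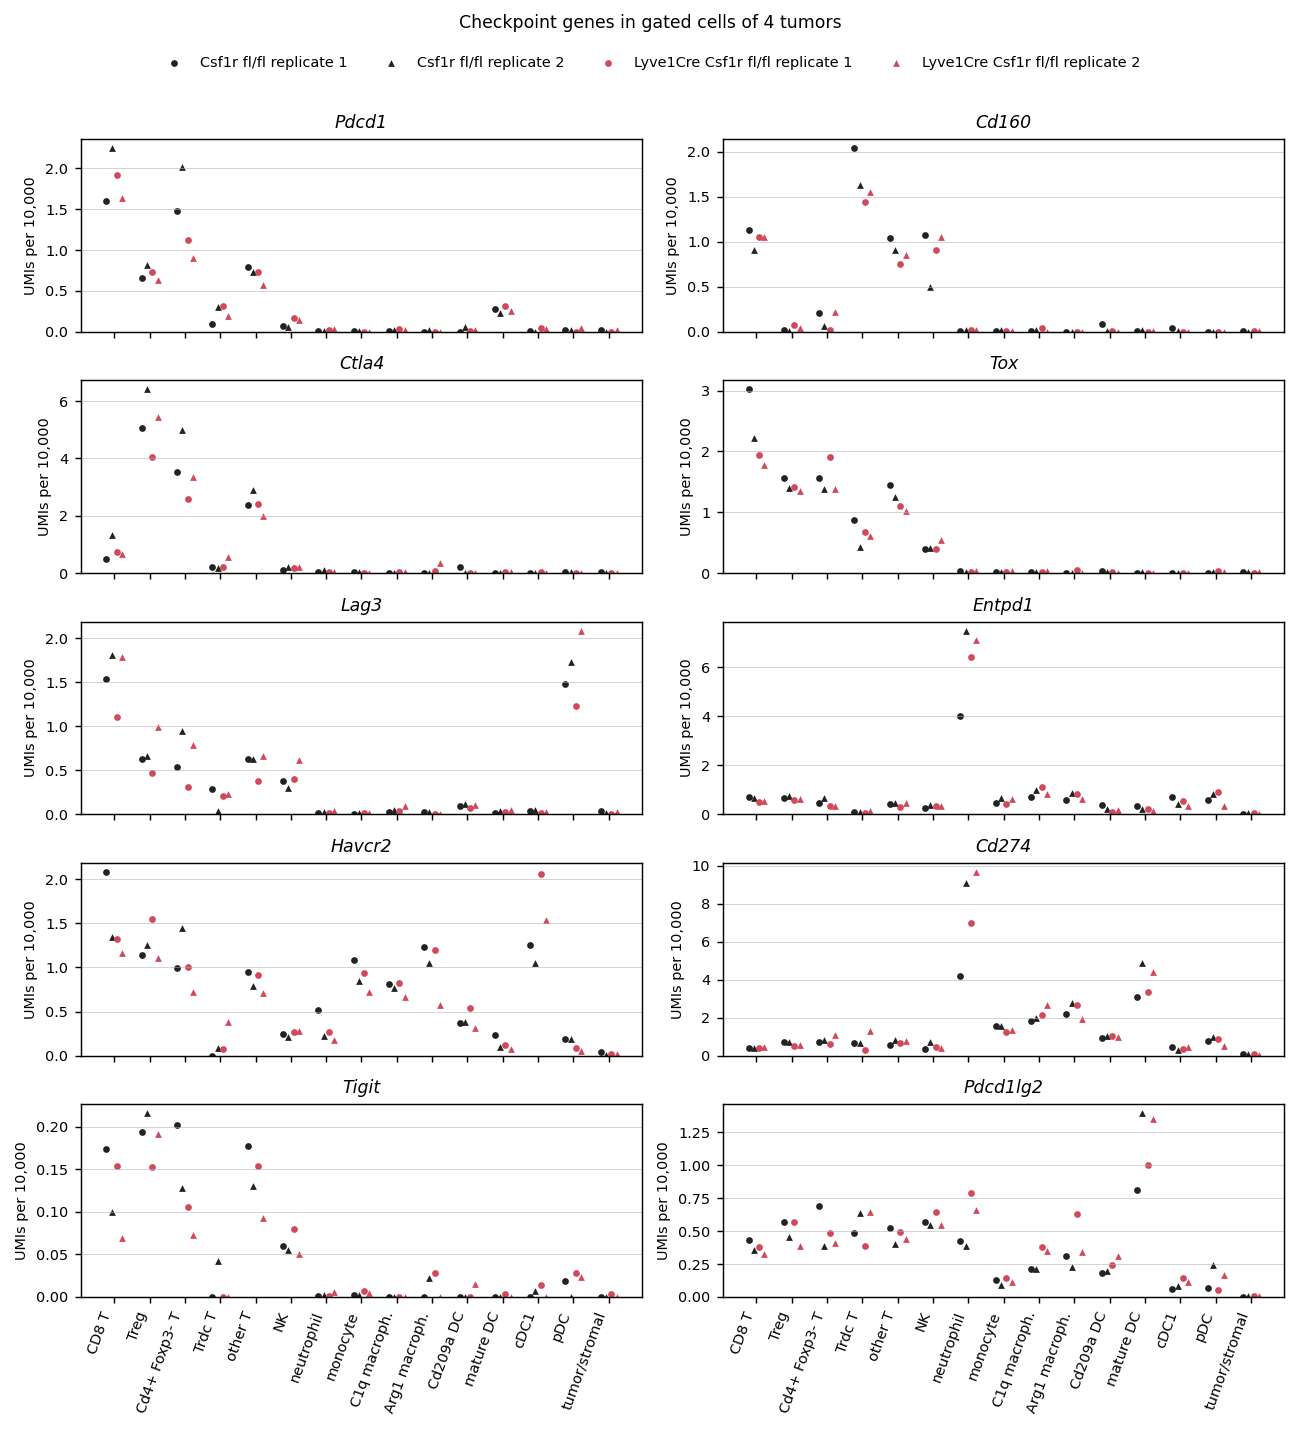
Level of each of the 10 genes (UMIs per 10000, 1 panel a gene) in 15 gates, 1 point a tumor, with black for Csf1r fl/fl, red for Lyve1Cre Csf1r fl/fl, circles for run 1 and triangles for run 2. Pdcd1 and Tox peak in CD8 T cells, Ctla4 in Treg, and Cd274 and Entpd1 in neutrophils, where Entpd1 runs from 4 to 7.49.

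Pdcd1, the gene of PD-1, was highest in CD8 T cells, at 1.59, 2.25, 1.92 and 1.64 UMIs per 10000 (1.85 ± 0.301, SD, n = 4 tumors). The Cd4+ Foxp3- gate, at 1.47, 2.02, 1.12 and 0.906, overlapped the CD8 T cells and stood above Treg in every tumor. Treg measured 0.66, 0.813, 0.726 and 0.635. A Pdcd1 UMI was found in 51.7% of CD8 T cells (median 4782 UMIs a cell) and in 0.475% of neutrophils (median 2194), the cells set as the background for the T-cell receptors. With cells thinned to 1500 UMIs the CD8 T share was 23.9%. Here and below, thinning to 1500 UMIs left out the shallower cells, so that the thinned shares of neutrophils describe their deeper cells. It left out 1175 of 5687 neutrophils, 72 of 2887 CD8 T cells, 31 of 1229 NK cells and 23 of 1442 mature dendritic cells.

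Outside the lymphocytes, mature dendritic cells carried Pdcd1 at 0.279, 0.232, 0.309 and 0.254 UMIs per 10000, with a UMI in 10.5% of cells (4.23% when thinned). That level stood above NK cells (0.0645, 0.0553, 0.174 and 0.144) in all 4 tumors and below the T cells outside the subset gates (0.572 to 0.793), and overlapped only the small Trdc T-cell gate among the lymphocytes (0.0971 to 0.316). The Cd209a dendritic cells held 0, 0.0573, 0.0105 and 0.015, and monocytes at most 0.00804. The summed T-cell markers in the mature dendritic gate were 0.444 to 0.635 UMIs per 10000, against 33.4 to 35.1 in CD8 T cells. Among mature dendritic cells without any T-cell marker UMI, a subset chosen after the values were seen, Pdcd1 measured 0.276, 0.21, 0.295 and 0.159.

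Ctla4 was highest in Treg, at 5.08, 6.41, 4.05 and 5.46 UMIs per 10000 (5.25 ± 0.976, SD, n = 4), with a UMI in 69.7% of Treg against 0.932% of neutrophils (medians 3697.5 and 2194 UMIs a cell). The Cd4+ Foxp3- gate followed at 3.54, 5, 2.59 and 3.36, overlapping the lowest Treg value. Within that gate, cells without an Il2ra or Ikzf2 UMI held 0.837, 2.52, 0.852 and 0.835, from 17 to 47 cells a tumor. CD8 T cells measured 0.475, 1.32, 0.717 and 0.652, below Treg in all 4 tumors, with the control tumor of run 2 highest of the CD8 T values.

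Lag3 had 2 peaks of like height in unlike cells. Plasmacytoid dendritic cells (median 4345.5 UMIs a cell) measured 1.48, 1.73, 1.22 and 2.09 UMIs per 10000 and CD8 T cells 1.53, 1.81, 1.11 and 1.79, and the 2 gates overlapped. A Lag3 UMI was found in 50.2% of cells of either gate, and in 22.7% of either when thinned, against 0.598% of neutrophils. The plasmacytoid gate held T-cell markers at 4.48 to 6.49 UMIs per 10000 (33.4 to 35.1 in CD8 T cells), and their part in its Lag3 was not tested. Treg (0.629, 0.664, 0.47 and 0.986) and NK cells (0.382, 0.301, 0.401 and 0.618) were lower than CD8 T cells in every tumor.

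Havcr2, the gene of TIM-3, was shared by T cells and myeloid cells. CD8 T cells measured 2.08, 1.35, 1.32 and 1.17 UMIs per 10000, cDC1 1.25, 1.06, 2.06 and 1.54, Treg 1.14, 1.26, 1.55 and 1.1, and monocytes 1.09, 0.846, 0.937 and 0.727. The first 3 of these gates overlapped, and the control tumor of run 1 was the highest in CD8 T cells. Thinned to 1500 UMIs, 19.3% of CD8 T cells and 17.8% of cDC1 had a Havcr2 UMI, with unthinned medians of 4782 and 12025 UMIs a cell. Neutrophils, which carried it in 7.37% of cells unthinned (0.522, 0.222, 0.27 and 0.173 UMIs per 10000), were not at 0 for this gene. Mature dendritic cells (0.238, 0.0996, 0.118 and 0.0793) and plasmacytoid cells (0.0474 to 0.193) were the lowest of the dendritic gates.

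Tigit, which binds the poliovirus receptor, was sparse, with 792 UMIs in all kept cells. Treg measured 0.194, 0.216, 0.153 and 0.191 UMIs per 10000 and CD8 T cells 0.174, 0.0998, 0.154 and 0.0691, with a UMI in 8.49% and 6.93% of cells against 0.0703% of neutrophils. The Cd4+ Foxp3- gate and the T cells outside the subset gates overlapped both, while the Trdc T-cell gate held 1 UMI in 202 cells and lay below the others.

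Cd160 was highest in the small gate of Trdc T cells, the gamma-delta lineage, at 2.04, 1.62, 1.44 and 1.55 UMIs per 10000 over 202 cells. CD8 T cells (1.13, 0.909, 1.06 and 1.05) stood below them without overlap and shared their range with NK cells (1.08, 0.498, 0.908 and 1.05). Treg held 0.0233, 0.0124, 0.0701 and 0.0432, and 1.44% of them had a UMI against 36.6% of CD8 T cells, 26.9% of NK cells and 0.422% of neutrophils.

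Tox, the factor of the exhaustion program, was highest in CD8 T cells at 3.02, 2.23, 1.93 and 1.78 UMIs per 10000 (2.24 ± 0.553, SD, n = 4). The Cd4+ Foxp3- gate (1.56, 1.38, 1.91 and 1.39) and Treg (1.56, 1.41, 1.42 and 1.35) followed, and the control tumor of run 1 was the highest of the CD8 T values. NK cells measured 0.387, 0.418, 0.394 and 0.546, and 17.4% of them had a UMI against 62.4% of CD8 T cells and 0.563% of neutrophils.

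Entpd1, which encodes the enzyme that breaks down extracellular ATP, was highest in neutrophils. Neutrophils measured 4, 7.49, 6.43 and 7.11 UMIs per 10000 (6.26 ± 1.57, SD, n = 4) and did not overlap any other gate. By mean level the next were C1q macrophages at 0.723, 0.974, 1.1 and 0.825, Arg1 macrophages (mean 0.731) and plasmacytoid dendritic cells (mean 0.663). Treg at 0.652, 0.738, 0.594 and 0.641 and CD8 T cells at 0.719, 0.662, 0.491 and 0.537 followed, and these ranges overlapped. Thinned to 1500 UMIs, 54.9% of neutrophils and 12.3% of C1q macrophages had an Entpd1 UMI, and no gate was set as one that lacks this gene.

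Cd274, the gene of PD-L1, was highest in neutrophils and mature dendritic cells. Neutrophils measured 4.19, 9.07, 6.98 and 9.66 UMIs per 10000 (7.48 ± 2.47, SD, n = 4) and mature dendritic cells 3.1, 4.89, 3.34 and 4.39 (3.93 ± 0.849), and both were lowest in the control tumor of run 1. The 2 gates overlapped by that tumor's neutrophils, and mature dendritic cells did not overlap the next gate, Arg1 macrophages (2.21, 2.75, 2.69 and 1.95). Thinned to 1500 UMIs, 49.7% of neutrophils and 43.8% of mature dendritic cells had a Cd274 UMI against 6.93% of NK cells, the background set for the ligands (unthinned medians 2194, 4843 and 4241 UMIs a cell). C1q macrophages (1.84, 2.01, 2.13 and 2.68) stood above monocytes (1.54, 1.57, 1.25 and 1.38), and monocytes above Cd209a dendritic cells (0.944, 1.05, 1.03 and 0.974), without overlap. Cells gated as tumor or stroma, a remnant of the CD45+ sort, held 0.0467 to 0.0973.

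The neutrophil gate held unequal amounts of macrophage markers in the 4 tumors. Its summed macrophage markers were 31.8, 13.7, 15 and 15.8 UMIs per 10000, against 75.9 to 98.9 in C1q macrophages, so that the control tumor of run 1 had the most of these markers, the least Cd274 and Entpd1, and the most Havcr2. The part of these markers in the neutrophil values was not tested.

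Pdcd1lg2, the gene of PD-L2, was highest in mature dendritic cells at 0.816, 1.39, 1.01 and 1.35 UMIs per 10000 (1.14 ± 0.278, SD, n = 4), without overlap with any other gate. NK cells, set as the gate that should lack it, came next at 0.571, 0.547, 0.648 and 0.546 and overlapped neutrophils (0.428, 0.387, 0.786 and 0.66). Thinned to 1500 UMIs, a Pdcd1lg2 UMI was in 16.3% of mature dendritic cells, 7.62% of neutrophils and 6.84% of NK cells. The NK level was no general floor, since monocytes measured 0.129, 0.0883, 0.146 and 0.115 and tumor or stromal cells at most 0.00778. In NK cells without a neutrophil or macrophage marker UMI, a subset chosen after the values were seen, it measured 0.489, 0.644, 0.571 and 0.595. The values in CD8 T cells (0.429, 0.357, 0.376 and 0.325) and C1q macrophages (0.215, 0.211, 0.379 and 0.349) lay below those of NK cells, so that the tests of this gene in these gates, given below, compare levels under that of the background gate.

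**Figure D2:**
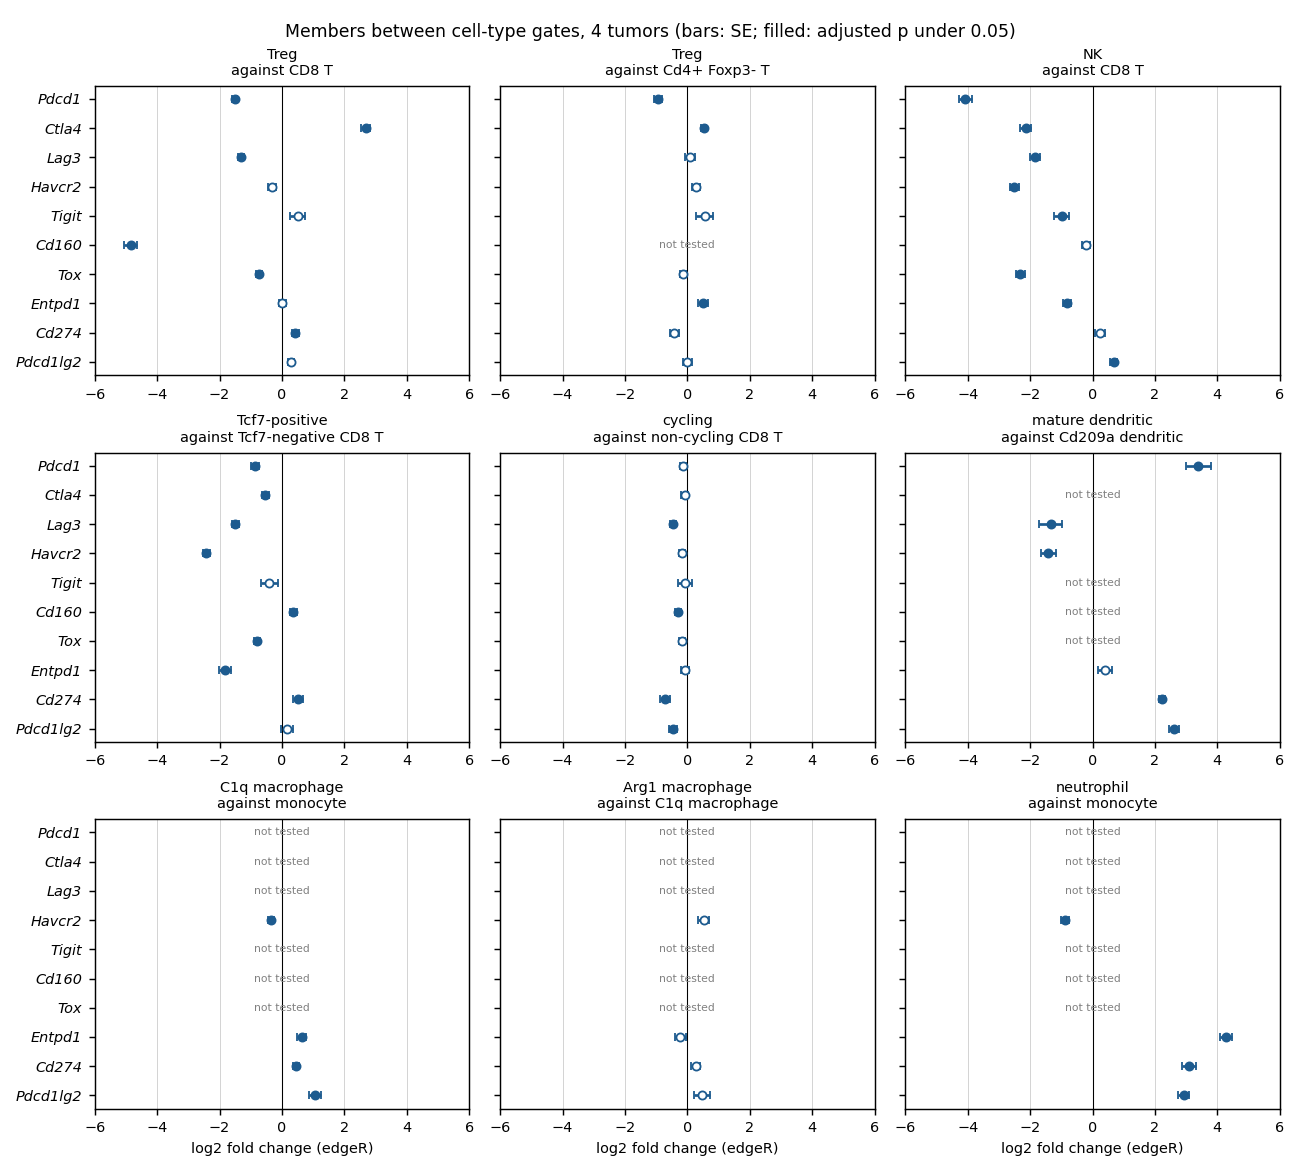
Log2 fold change of each member between 2 gates of the same tumors (1 panel a comparison), with bars for the standard error of the edgeR fit over 4 tumors. Filled points had an adjusted p under 0.05 and members too low to test are marked, with the separation widest for Cd160 in Treg against CD8 T cells (-4.85) and for Entpd1 in neutrophils against monocytes (4.28).

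Differences between gates were tested by edgeR's quasi-likelihood fit on UMIs summed by gate and tumor, with the tumor as a block and p-values adjusted over all genes tested. Treg against CD8 T cells separated the receptors into sets. Ctla4 was higher in Treg by 2.68 ± 0.144 on the log2 scale (SE, 4 tumors; edgeR adjusted p = 2.19e-08), while Cd160 (-4.85 ± 0.208; 2.78e-09), Pdcd1 (-1.51 ± 0.0787; 1.66e-08), Lag3 (-1.33 ± 0.0999; 4.58e-07) and Tox (-0.74 ± 0.0931; 5.43e-05) were lower. Cd160 passed the low-count filter through the CD8 T cells alone, with 30 UMIs in all Treg, so that the direction of its call was largely set by the filter. Cd274 was 0.43 ± 0.115 higher in Treg (edgeR adjusted p = 0.0149), a call made in 6 of 11 settings and lost without Csf1r fl/fl replicate 1 (0.37) or replicate 2 (0.33). Its levels in Treg (0.714, 0.709, 0.491 and 0.542 UMIs per 10000) and CD8 T cells (0.429, 0.41, 0.391 and 0.44) lay within the range of NK cells, the background gate (0.373 to 0.743). Markers of myeloid cells were also higher in Treg than in CD8 T cells of every tumor, the summed neutrophil markers at 9.23, 7.56, 8.78 and 6.05 against 7.83, 4.01, 7.36 and 3.33 UMIs per 10000 and the macrophage markers at 1.32, 1.47, 0.948 and 0.808 against 1.12, 0.77, 0.557 and 0.652, and in cells with no UMI of either marker list, a subset chosen after the values were seen, Cd274 measured 0.429, 0.573, 0.346 and 0.528 in Treg (4 to 20 UMIs a tumor) and 0.14, 0.32, 0.225 and 0.286 in CD8 T cells (11 to 19 UMIs), higher in Treg in 4 of 4 tumors. Havcr2 (-0.32), Tigit (0.50), Entpd1 (0.01) and Pdcd1lg2 (0.28) did not pass the test, with adjusted p from 0.0621 to 0.945, although Havcr2 was called without Lyve1Cre Csf1r fl/fl replicate 1 (-0.46). In all 6 of 10 members were called, 2 higher and 4 lower, where 26.7% of 10071 genes were called (13.4% higher, 13.2% lower), and the median log2 change was -0.15 over the members and -0.02 over all genes.

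Other genes of the pathway also divided between Treg and CD8 T cells. Of 5 other receptors of T and NK cells, 3 were higher in Treg (the costimulatory Icos, by 2.82, and Cd28, by 0.40, and Btla, an inhibitory receptor that shares the ligand TNFRSF14 with CD160, by 0.87) and 2 lower (Cd226, which shares its ligands with TIGIT, by -3.13, and Cd96 by -2.36). Of 17 exhaustion and differentiation factors tested, 5 were higher, among them Prdm1 (1.44), Slamf6 (1.32) and Nr4a1 (1.01), and 11 lower, among them the cytokine gene Ifng (-4.01), Cxcr6 (-3.51) and Eomes (-3.46). Among 9 genes of PD-1 signalling and ligand induction 5 were higher, including Cmtm6 (0.91), which keeps PD-L1 at the surface, and 3 lower, including the phosphatase gene Ptpn6 (-1.23). Of 7 partners tested 1 was higher, Nt5e (1.47), whose product works after that of Entpd1, and 1 lower.

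Treg and the Cd4+ Foxp3- gate were closer, with 6.26% of 8077 genes called (2.56% higher in Treg, 3.7% lower). Of 9 members tested 3 were called: Pdcd1 lower in Treg by -0.95 ± 0.129 (SE; edgeR adjusted p = 1.61e-05), Ctla4 higher by 0.53 ± 0.0804 (6.98e-05) and Entpd1 higher by 0.51 ± 0.153 (0.0459). The Entpd1 call was made in 3 of 12 settings and was lost without Csf1r fl/fl replicate 1 (0.53) or either Lyve1Cre tumor (0.44 without replicate 1, 0.41 without replicate 2). Havcr2 was called without Csf1r fl/fl replicate 2 (0.45). With the Cd4+ gate limited to cells without Il2ra or Ikzf2 UMIs (17 to 47 cells a tumor), the Ctla4 difference was 2.17, Havcr2 was called at 1.26 (edgeR adjusted p = 0.00802) and Entpd1 was not called.

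NK cells carried fewer of the receptors than CD8 T cells. Pdcd1 (-4.08 ± 0.213, SE; edgeR adjusted p = 4.52e-08), Havcr2 (-2.51 ± 0.148; 1.46e-07), Tox (-2.31 ± 0.157; 4.85e-07), Ctla4 (-2.15 ± 0.164; 1.35e-06), Lag3 (-1.84 ± 0.154; 3.01e-06), Tigit (-0.99 ± 0.241; 0.0108) and Entpd1 (-0.82 ± 0.143; 0.00123) were lower. Pdcd1lg2 was 0.68 ± 0.112 higher in NK cells (edgeR adjusted p = 0.00081). The Tigit call was lost without Csf1r fl/fl replicate 1 (-0.74). Cd160 (-0.21, edgeR adjusted p = 0.299) and Cd274 (0.24, 0.348) did not pass the test. That is 8 of 10 members, where 21.7% of 9857 genes were called (12.1% higher, 9.52% lower), with a median log2 change of -1.41 against -0.01 over all genes. The other receptors, Cd28, Icos, Cd226, Cd96 and Btla, were all 5 lower in NK cells, including Btla and Cd226 (both -1.74) and Icos (-1.40), and of the differentiation factors Gzmb (2.19), Eomes (2.13) and Nr4a1 (1.12) were higher in NK cells and Cxcr6 (-4.05), Irf4 (-2.35) and Cd101 (-2.08) lower.

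Within CD8 T cells most receptors were lower where a UMI was found of Tcf7, the transcription factor gene of the self-renewing subset. A Tcf7 UMI was found in 559 of 2887 CD8 T cells. Havcr2 measured 0.385, 0.268, 0.309 and 0.317 UMIs per 10000 in Tcf7-positive and 2.28, 1.63, 1.63 and 1.67 in Tcf7-negative CD8 T cells, which did not overlap. The difference was -2.43 ± 0.118 on the log2 scale (SE, 4 tumors; edgeR adjusted p = 1.71e-10), the widest of the members. Median depths were like, at 5017 to 5600.5 UMIs a cell in the positive and 4194 to 5274 in the negative cells.

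Lag3 measured 0.592, 0.752, 0.374 and 0.819 UMIs per 10000 with and 1.65, 2.09, 1.34 and 2.36 without a Tcf7 UMI (-1.50 ± 0.106; edgeR adjusted p = 1.64e-08). Entpd1 measured 0.118, 0.153, 0.258 and 0.22 against 0.791, 0.794, 0.562 and 0.725 (-1.83 ± 0.194; edgeR adjusted p = 2.47e-06), and neither gene's ranges overlapped. Pdcd1, at 1.02, 1.75, 1.15 and 0.737 against 1.66, 2.38, 2.16 and 2.18, was lower in the Tcf7-positive cells of every tumor (-0.85 ± 0.131; edgeR adjusted p = 0.000145), although the ranges overlapped. Tox, at 1.67, 1.43, 1.16 and 1.19 against 3.18, 2.43, 2.17 and 2.13, was likewise lower (-0.81 ± 0.0884; edgeR adjusted p = 3.52e-06).

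Ctla4 was lower in Tcf7-positive cells by -0.53 ± 0.121 (edgeR adjusted p = 0.0049; called in 7 of 11 settings). Cd160, which was 1.39, 1.27, 1.28 and 1.02 with and 1.1, 0.814, 0.99 and 1.07 without a Tcf7 UMI, went the other way by 0.36 ± 0.111 (edgeR adjusted p = 0.0348; called in 4 of 11 settings), as did Cd274 by 0.52 ± 0.159 (0.0333; called in 5 of 11 settings). The Cd160 ranges overlapped, with the order turned in Lyve1Cre Csf1r fl/fl replicate 2. These last 3 calls each changed when a tumor was left out: Ctla4 was not called without Lyve1Cre Csf1r fl/fl replicate 2 (-0.45), Cd160 not without Csf1r fl/fl replicate 1 (0.35) or 2 (0.25) or Lyve1Cre Csf1r fl/fl replicate 1 (0.34), and Cd274 not without Csf1r fl/fl replicate 2 (0.52) or Lyve1Cre Csf1r fl/fl replicate 1 (0.53) or 2 (0.33). Markers of myeloid cells moved with Cd274, being higher in the Tcf7-positive cells of every tumor. Neutrophil markers summed to 9.92, 4.65, 9.18 and 4.38 UMIs per 10000 with and 7.58, 3.85, 6.8 and 2.7 without a Tcf7 UMI, and macrophage markers to 1.14, 0.943, 0.605 and 0.847 against 1.11, 0.725, 0.542 and 0.538. Their part in the Cd274 difference was not tested, and Cd274 in CD8 T cells lay within the range of the background gate, as given above. In all 8 of 10 members were called, 2 higher and 6 lower, where 15.1% of 9251 genes were called (8.47% higher, 6.64% lower), with medians of -0.67 and 0.00. Of 17 exhaustion and differentiation factors tested 4 were higher and 10 lower. Among them, Id3 (3.38), Slamf6 (2.72) and Eomes (1.42) were higher in Tcf7-positive cells and Cxcr6 (-1.87), Prdm1 (-1.63) and Gzmb (-1.31) lower.

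**Figure D3:**
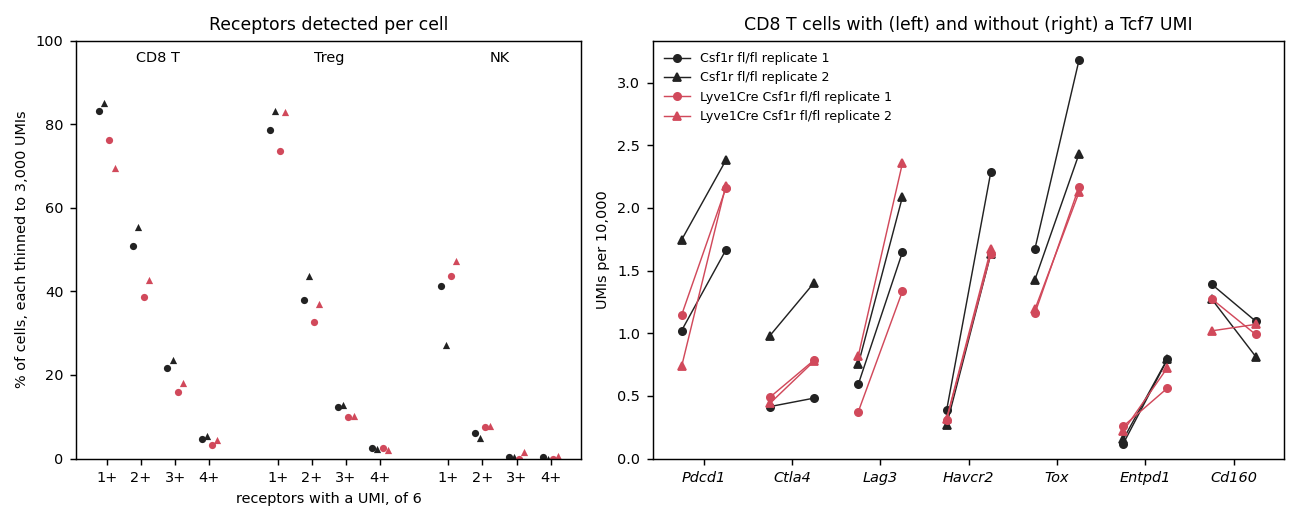
Left, percent of CD8 T cells, Treg and NK cells, each thinned to 3000 UMIs, with UMIs of at least 1, 2, 3 or 4 of the 6 receptors, 1 point a tumor. Right, level (UMIs per 10000) of 7 members in CD8 T cells with (left point) and without (right point) a Tcf7 UMI, a line joining the values of 1 tumor, of which the Havcr2 lines rise in all 4 tumors.

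Several receptors were often found in 1 CD8 T cell. Thinned to 3000 UMIs, 21.6%, 23.6%, 15.8% and 18.1% of CD8 T cells (of 883, 454, 449 and 502 cells) had UMIs of 3 or more of the 6 receptors, against 12.3%, 12.7%, 10.04% and 10.2% of Treg and at most 1.67% of NK cells. These 3 gates did not overlap, but the Cd4+ Foxp3- gate, at 10.1%, 23.1%, 4.21% and 14.1% (of 79, 78, 95 and 85 cells), overlapped both CD8 T cells and Treg. Without thinning the CD8 T shares were 44%, 48.6%, 30.1% and 37.5%. Tcf7-negative CD8 T cells had 3 or more receptors in 22.9%, 26.1%, 18.7% and 25.6% of cells and Tcf7-positive cells in 10.3%, 12.8%, 5.21% and 5.79%.

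CD8 T cells with a Pdcd1 UMI more often had a UMI of Lag3, Havcr2 or Ctla4 in the same thinned cells. Lag3 was found in 41.7%, 51.5%, 33.5% and 59.0% of cells with a Pdcd1 UMI and in 35.2%, 39.2%, 26.0% and 25.8% of those without. Havcr2 stood at 47.0%, 32.8%, 32.9% and 28.3% against 38.3%, 26.4%, 22.6% and 20.7%, and Ctla4 at 17.1%, 30.4%, 18.6% and 18.5% against 9.96%, 20.4%, 13.9% and 14% of the rest. Each of these 3 receptors was higher beside Pdcd1 in 4 of 4 tumors. Cd160 (32.4%, 21.6%, 24.2% and 27.2% against 26.2%, 24%, 24.7% and 21.3%) and Tigit (4.67%, 2.45%, 3.73% and 1.73% against 4.63%, 3.2%, 3.82% and 0.608%) were each higher beside Pdcd1 in 2 of 4 tumors. Tox was also higher beside Pdcd1 in every tumor (61.7%, 55.9%, 44.1% and 50.9% against 53.7%, 42.0%, 41.0% and 30.1%).

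Cycling CD8 T cells, with 2 or more UMIs of Mki67 and Top2a, carried less Lag3 and Cd160 RNA per 10000 UMIs than non-cycling ones, and less of both ligands, whose levels in CD8 T cells lay within or below the range of the background gate. Lag3 measured 1.23, 1.48, 0.927 and 1.6 UMIs per 10000 in 931 cycling cells and 1.74, 2.33, 1.19 and 1.91 in 1532 non-cycling cells, lower in the cycling cells of every tumor though the ranges overlapped (-0.46 ± 0.0951, SE; edgeR adjusted p = 0.000851). Cd274 (-0.71 ± 0.165; 0.00222), Pdcd1lg2 (-0.46 ± 0.135; 0.0122) and Cd160 (-0.31 ± 0.1; 0.0214) were lower too, which made 4 of 10 members where 36% of 9005 genes were called (18.3% higher, 17.7% lower). Without Csf1r fl/fl replicate 1 neither Pdcd1lg2 (-0.38) nor Cd160 (-0.24) was called, and Cd160 was not without Csf1r fl/fl replicate 2 (-0.27). The summed macrophage markers were also lower in the cycling cells of every tumor, at 0.874, 0.49, 0.467 and 0.497 against 1.28, 1.04, 0.73 and 0.816 UMIs per 10000, and the neutrophil markers in 3 of 4 tumors (8.07, 3.7, 6.18 and 1.97 against 6.63, 3.74, 6.94 and 5.46), and their part in the ligand differences was not tested. The cycling cells were the deeper, with median depths of 7151 to 8503 UMIs against 3290.5 to 3983, and without the 10% of cells with the most UMIs Lag3 was not called (-0.21). Pdcd1 (1.42, 2.17, 1.63 and 1.73 against 1.76, 2.32, 2.12 and 1.43) did not pass the test, and neither did Ctla4, Havcr2, Tigit, Tox and Entpd1.

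Both PD-1 ligands were higher in mature dendritic cells than in Cd209a dendritic cells of the same tumors. Pdcd1lg2 differed by 2.61 ± 0.155 on the log2 scale (SE, 4 tumors; edgeR adjusted p = 1.84e-09) and Cd274 by 2.22 ± 0.11 (2.98e-10), and neither gene's levels overlapped between the gates. Pdcd1 was higher by 3.39 ± 0.393 (2.79e-06), against a gate with 0 UMIs in 1 of the tumors, so that this value depends on the prior count. Havcr2 (-1.42 ± 0.246; 0.00014) and Lag3 (-1.34 ± 0.368; 0.00549) were lower, and Entpd1 (0.40, 0.152) did not pass the test. That is 5 of 6 members tested, where 59.3% of 7951 genes were called (29.4% higher, 29.8% lower). Pdcd1 passed the low-count filter through the mature gate alone (219 UMIs, against 12 in Cd209a dendritic cells). Lag3 passed it through the Cd209a gate alone (41 UMIs, against 25), so that the directions of these calls were largely set by the filter. Of 8 partners tested 5 were higher, among them Cd80 (2.46), Nectin2 (2.05) and Ceacam1 (1.63), and 3 lower, among them the TIM-3 ligand gene Lgals9 (-1.73), and of the genes of ligand induction Irf1 (1.66) and Jak2 (1.13) were higher. The mature dendritic gate held neutrophil markers at 18.2 to 67.3 UMIs per 10000, and their part in its Cd274 was not tested.

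C1q macrophages differed from monocytes in all 4 members that could be tested, where 31.1% of 9097 genes were called (14% higher, 17.1% lower). Pdcd1lg2 (1.06 ± 0.181, SE; edgeR adjusted p = 0.000202), Entpd1 (0.62 ± 0.129; 0.00115) and Cd274 (0.45 ± 0.109; 0.00413) were higher in the macrophages. Havcr2 was lower by -0.36 ± 0.0965 (0.00888; called in 7 of 11 settings, and not without Csf1r fl/fl replicate 1, at -0.23). Of 9 genes of PD-1 signalling and ligand induction 4 were lower in the macrophages, including Jak2 (-0.74), Irf1 (-0.61) and Ifngr1 (-0.57).

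Arg1 macrophages against C1q macrophages gave 0 of 4 members called by edgeR, where 12.4% of 5446 genes were called. DESeq2 also called 0, and 1 member, Havcr2, had an unadjusted p under 0.05 (0.53 ± 0.174, SE; edgeR adjusted p = 0.0538). Cd274 (0.27), Pdcd1lg2 (0.48) and Entpd1 (-0.22) had adjusted p from 0.272 to 0.492. Without the cells of Lyve1Cre Csf1r fl/fl replicate 2, 2 members were called, Havcr2 and Cd274.

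Neutrophils stood far from monocytes in the members, as in the genome at large, where 61.4% of 9639 genes were called (31.5% higher, 29.8% lower). Entpd1 was higher in neutrophils by 4.28 ± 0.185 (SE; edgeR adjusted p = 4.05e-09), Cd274 by 3.09 ± 0.235 (3.37e-07) and Pdcd1lg2 by 2.92 ± 0.18 (5.75e-08), and Havcr2 was lower by -0.89 ± 0.132 (9.72e-05). All 4 members tested were called, with a median log2 change of 3.01 against -0.09 over all genes. The scaling by TMM set these fitted changes 0.71 (median) above the plain log2 ratios of the levels, which were 3.53, 2.38, 2.24 and -1.60 in the same order of genes, all in the same direction, and in the mature dendritic comparison 0.25 above. Of 10 partners tested 2 were higher and 3 lower, and of 9 genes of PD-1 signalling and ligand induction 5 were higher and 2 lower. Nt5e (4.48), whose enzyme completes the path from ATP to adenosine, Cd80 (1.90) and the interferon-response factor gene Irf1 (1.61) were also higher in neutrophils, and Nectin2 (-1.66) and Cd86 (-0.72) lower.

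**Figure D4:**
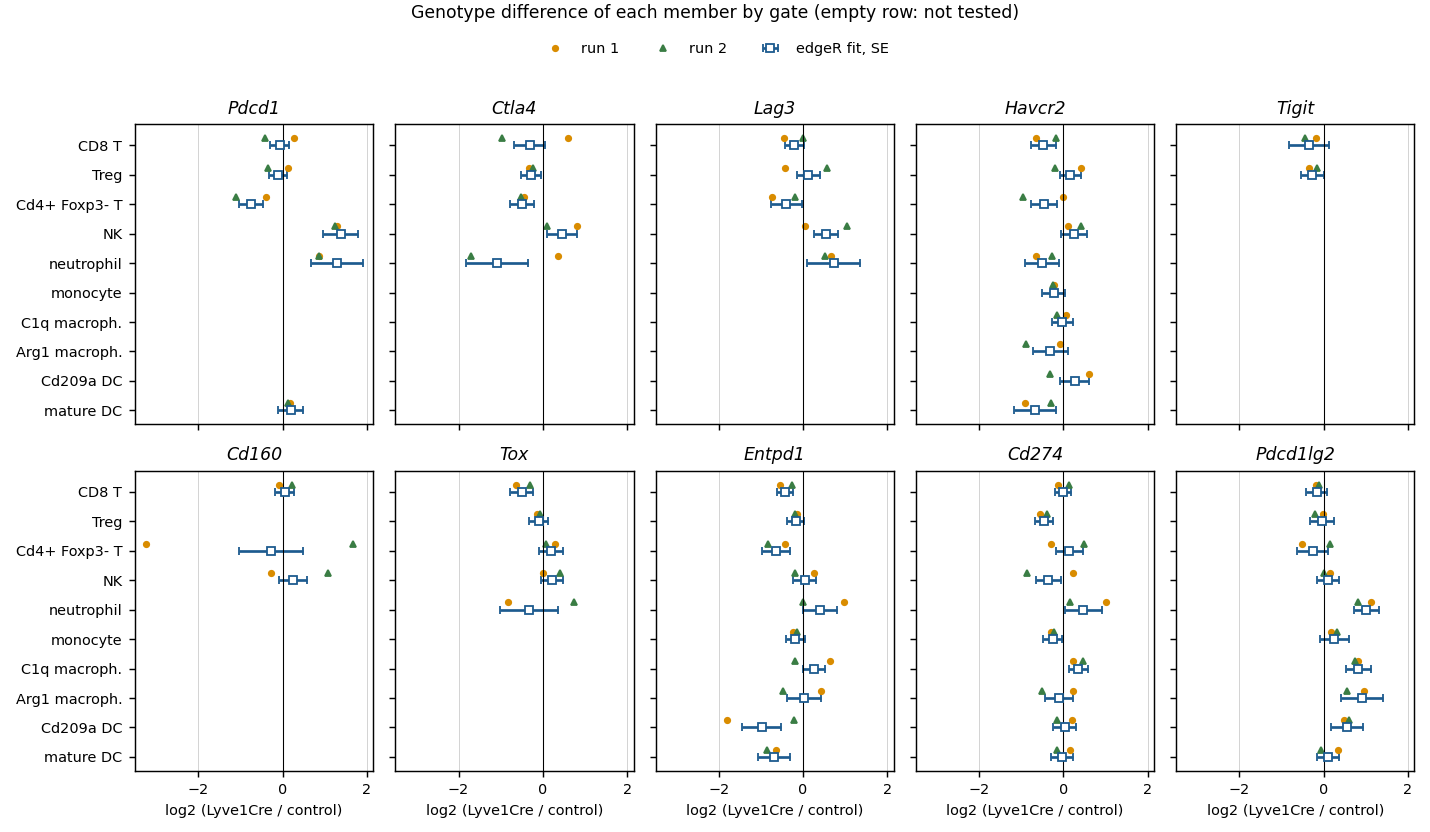
Log2 ratio of Lyve1Cre Csf1r fl/fl to Csf1r fl/fl for each member (1 panel a gene) in 10 gates, with squares for the edgeR fit and its standard error, circles for run 1 and triangles for run 2, and empty rows where a gene was too low to test. No square, from the fit without a run block, had an adjusted p under 0.05, and the Pdcd1lg2 symbols lie above 0 in neutrophils and C1q macrophages.

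The study asked what the loss of LYVE-1-positive macrophages changes in the tumor, and the genotypes were compared in 10 gates. In fits without a run block, no member was called in any gate by edgeR (0 of 66 tests over the 10 gates, adjusted p over all genes of a gate) or by DESeq2. In 8 of the gates, CD8 T cells, Treg, NK cells, neutrophils, monocytes, both macrophage gates and mature dendritic cells, 0% of all genes were called, in the Cd4+ Foxp3- gate 0.0426% and in the Cd209a dendritic gate 0.0149%. An unadjusted p under 0.05 was found in 6 of these 66 tests. That count is given without the share of all genes under the same limit and so is not read as a genotype effect. These fits took no account of the run, although the tumors of a run deviated together. The correlation of their deviations ran from 0.192 in the Cd4+ Foxp3- gate to 0.694 in neutrophils. With the run as a block 1 member was called, Pdcd1lg2 in neutrophils, and 0 to 110 genes were called in a gate. With 2 tumors a genotype an exact permutation test could not go below a two-sided p of 0.333.

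By its level, Pdcd1lg2 was higher in the Lyve1Cre tumor of both runs in 5 of 10 gates (neutrophils, monocytes, both macrophage gates and Cd209a dendritic cells) and lower in both in 1 (CD8 T cells). Scaled by TMM, NK cells joined the higher gates and Treg the lower ones, with levels that differed little in 1 of the runs (0.547 and 0.546 in NK cells of run 2, 0.567 and 0.569 in Treg of run 1). In neutrophils Pdcd1lg2 measured 0.428 and 0.387 in the controls and 0.786 and 0.66 in the Lyve1Cre tumors. The genotypes did not overlap there, and the share of all genes that separated likewise was not counted. The fitted difference was 1.02 ± 0.302 (SE; edgeR unadjusted p = 0.00693, adjusted p near 1). With the run as a replicate block it was 1.01 ± 0.204 with an edgeR adjusted p of 0.00423, in a fit that called 1.03% of 9452 genes. This was the single one of 12 settings in which it was called, and the only one that took account of the shared run. C1q macrophages (0.215 and 0.211 against 0.379 and 0.349) differed by 0.82 ± 0.293 (edgeR unadjusted p = 0.0146, adjusted p near 1).

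The receptors showed no common direction between genotypes. Pdcd1 in NK cells, at 0.0645 and 0.0553 against 0.174 and 0.144, gave 1.38 ± 0.416 (edgeR unadjusted p = 0.00449, adjusted p near 1). These levels rest on 14, 9, 26 and 20 UMIs in 10, 6, 11 and 9 cells. The control tumors alone would not have passed the low-count filter for this gene, so that the direction of its difference was in part set by the filter. Thinned to 1500 UMIs, 0.545%, 0.313%, 1.08% and 0% of NK cells had a Pdcd1 UMI, so that the genotypes overlapped. The NK gate held T-cell markers at 9.48, 8.55, 9.55 and 9.67 UMIs per 10000, and their part in its Pdcd1 was not tested. In CD8 T cells Pdcd1 gave -0.07 ± 0.226. In the Cd4+ Foxp3- gate Pdcd1 gave -0.74 ± 0.288 (edgeR unadjusted p = 0.018). In CD8 T cells Tox (-0.50 ± 0.269), Havcr2 (-0.47 ± 0.298) and Entpd1 (-0.43 ± 0.196) were lower in the Lyve1Cre fit without passing the test, and the median over the members was -0.26 against 0.00 over all genes. The high Tox and Havcr2 values of the control tumor of run 1, given above, enter these differences.

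Entpd1 was lower in the Lyve1Cre tumor of both runs in 6 of 10 gates and higher in both in 0, by its level and scaled by TMM, with the largest unadjusted support in Cd209a dendritic cells (-0.99 ± 0.46; edgeR unadjusted p = 0.0468, adjusted p near 1). This value was -0.20 with stricter gates, -0.30 without the 10% of cells with the most UMIs, and from -1.45 to -0.61 with 1 tumor left out, lowest without Csf1r fl/fl replicate 2. In the Cd209a dendritic gate the summed neutrophil markers (11.8 and 3.1 against 7.69 and 2.05 UMIs per 10000) were also lower in the Lyve1Cre tumor of both runs. The macrophage markers (11.3 and 6.08 against 8.62 and 4.48) were lower too, and the part of these markers in the Entpd1 difference was not tested. Havcr2 was lower in both runs in 5 of 10 gates by its level, in 6 scaled by TMM, and higher in 1, NK cells. Cd274 was higher in both runs in neutrophils and C1q macrophages and lower in both in Treg (-0.46 ± 0.208; edgeR unadjusted p = 0.0489, and -0.096 without the 10% of cells with the most UMIs) and monocytes. Summed neutrophil markers were also lower in the Lyve1Cre tumors, in Treg (9.23 and 7.56 against 8.78 and 6.05 UMIs per 10000) and monocytes (17.1 and 14.6 against 16.5 and 11.7). So were the macrophage markers in Treg (1.32 and 1.47 against 0.948 and 0.808). The part of these markers in the Cd274 differences was not tested, and Cd274 in Treg lay within the range of the background gate. Directions of 2 runs are counts without a test, and gates of a tumor share a library. The share of all genes that kept 1 direction in both runs was not counted, so these counts of gates have no baseline.

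The share of CD8 T cells with a Tcf7 UMI was 9.32% (102 of 1094 cells, 95% exact Clopper-Pearson interval 7.67 to 11.2) and 19.5% (108 of 555, 16.2 to 23.0) in the controls and 20.03% (129 of 644, 17.0 to 23.3) and 37.0% (220 of 594, 33.1 to 41.1) in the Lyve1Cre tumors. The genotype means of 14.4% and 28.5% gave an exact permutation p of 0.333 (two-sided), the smallest possible here. The share was higher in the Lyve1Cre tumor of each run, and run 2 was higher than run 1 in each genotype. The highest share was that of Lyve1Cre Csf1r fl/fl replicate 2, the tumor whose lymphocyte clusters had been left out in part, and whose B-cell gate held 42 cells against 1, 2 and 4 in the others. The part of these cells in the share was not tested. These intervals cover counting error only.

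Whether the genotype difference itself differed between CD8 T cells and Treg was tested as an interaction, and 0 of 10 members were called by edgeR or DESeq2, where 0.00939% of 10654 genes were called. An unadjusted p under 0.05 was found for 3 members: Cd160 (-1.69 ± 0.532, SE; edgeR adjusted p = 0.842), Havcr2 (-0.52 ± 0.231; 0.97) and Cd274 (0.48 ± 0.195; 0.97). The share of all genes under that limit is not set beside this count. The Treg side of the Cd160 value rests on 3, 3, 17 and 7 UMIs in 3, 2, 10 and 6 cells. Without the cells of Csf1r fl/fl replicate 2 the Havcr2 value was -0.93.

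The genes whose level over the 15 gates was most like that of a member were found by Pearson's r over the mean log2(CPM + 10) of each gate, among 8686 genes, as a description with the gates of a tumor sharing a library. Ctla4 was most like Igflr1 (r = 0.995), followed by Icos and Ttn, and Pdcd1 most like Ubash3a (0.945), Trac and Themis, of which Trac encodes a constant chain of the T-cell receptor. Cd160 was followed by the NK receptor genes Crtam, Klrc2 and Klrc1, and Tox by Trbc2, Camk4 and Chst2. Cd274 was most like Klf6 (0.949), Nfil3 (0.945) and Pfkfb3, and Entpd1 most like the chemokine and chemokine receptor genes Cxcl2, Ccrl2 and Ccl3. Lag3 was most like Gm42047 (0.965) and Havcr2 most like Glipr1 (0.831), the lowest of these leading values named here.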

How the data were processed

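Hashtag and gene expression counts were measured in 2 pooled runs of the 10x Chromium 3' v2 assay. Per the labels and the study's methods, the authors made the deposited gene and hashtag counts with Cell Ranger 6.0.1 on mm10. The deposited table of corrected counts, a score that the authors made with SCTransform in Seurat after keeping singlets under a mitochondrial limit and leaving out clusters specific to 1 tumor, served only to name the kept cells. No doublet caller was run here beyond that singlet filter. A cell took the tumor of its higher hashtag, which the deposited sample sheet ties to a genotype. GEO's own labels give the run of a pool and not the genotype of a cell.

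Gates used UMIs per cell: at least 2 of Cd3d, Cd3e and Cd3g (T cells, then 1 or more of Cd8a and Cd8b1, Foxp3, Cd4 or Trdc), 2 of Ncr1 and Klrb1c (NK cells), 200 per 10000 of S100a8 and S100a9 (neutrophils), 3 of Siglech and Ccr9 (plasmacytoid), 1 of Ccr7 and 2 of Fscn1 (mature dendritic), 2 of Xcr1 and Clec9a (cDC1), 2 of Cd209a and Flt3 (Cd209a dendritic), 5 of the C1q genes, 5 of Arg1, Mmp12 and Gpnmb, and 5 of Ly6c2 with 10 of Lyz2 (monocytes). Lymphocytes with a second lineage's markers were left out.

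Raw UMIs were summed per gate and tumor and tested with edgeR 4.0.16 (R 4.3.3; filterByExpr, TMM, quasi-likelihood, Benjamini-Hochberg over all genes tested, adjusted p under 0.05), with the tumor as block between gates and no block between genotypes. The members and gene lists were chosen with earlier results of these data known. All 10 members are described, and from each pathway list up to 3 genes per direction that passed the test and moved the same way in all 4 tumors. Shares of cells were also taken at 1500 UMIs, and receptors per cell at 3000 UMIs, leaving out shallower cells. Alternatives were DESeq2 1.42.0, RLE factors, no filter, each tumor left out, stricter gates, cells of clear hashtag only, no cells of the top 10% of UMIs, and other blocks. Both tumors of a replicate number shared a run, and their deviations from the group means correlated at 0.192 to 0.694 over the 10 gates. In simulated data the CD8 T-cell genotype test recovered 58% of changes of 1 on the log2 scale and all of 2 (100 genes each of 10291), and the neutrophil test 15% and 93% (of 9185). The changed genes were drawn only from those above a minimum abundance, not from all genes tested. Tigit in CD8 T cells (mean 0.124 UMIs per 10000) and Pdcd1 in neutrophils (mean 0.0196) and NK cells (mean 0.109) lay below it. Recovery of genes as low as these was not tested. Depth was 27686362 to 56349195 UMIs a tumor.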

Additional observations from a re-analysis of the deposited data

Results flagged for a closer look

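Some members were higher in the Lyve1Cre Csf1r fl/fl tumor of both runs in 1 gate and lower in both runs in another, counted as pairs of gates on values scaled by TMM. These opposite directions were not tested as differences, and each rests on 2 runs. The share of all genes with such pairs was not counted. Pdcd1lg2 had 12 such pairs, from 6 gates in which it was higher (NK cells, neutrophils, monocytes, both macrophage gates and Cd209a dendritic cells) and 2 in which it was lower (CD8 T cells and Treg), but 5 pairs by its plain levels, where neither NK cells nor Treg went the same way in both runs. Havcr2 had 6 pairs (5 by plain levels), all with NK cells as the gate in which it was higher. Cd274 had 4 pairs, with neutrophils and C1q macrophages on the higher side and Treg and monocytes on the lower. The neutrophil markers of Treg and monocytes were also lower in both runs, as given above, and their part was not tested. Tox had 4 pairs, Pdcd1 had 3, Ctla4 had 2 and Lag3 had 2 (4 by plain levels). Pdcd1 was higher in NK cells, neutrophils and mature dendritic cells, and Lag3 in NK cells and neutrophils. Both were lower in the Cd4+ Foxp3- gate. Neutrophils, the background gate of the receptors, held 30 Pdcd1 and 36 Lag3 UMIs in 5687 cells. In NK cells and neutrophils, Pdcd1 in the control tumors alone would not have passed the low-count filter. Those directions of Pdcd1 were at least in part set by the filter.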

How the results depend on the processing

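The numbers of members called kept within 1.5 times their value in 111 of 124 alternatives. Of the changes of members that were called, 415 of 464 values under an alternative kept their direction and call and 49 lost the call, with no called member turning its direction. The exceptions among the numbers of called members are these, and the cause was not tested. Tcf7-positive against Tcf7-negative CD8 T cells went from 8 to 5 with DESeq2, with no tumor block and with stricter gates. Cycling against non-cycling cells went from 4 to 2 with DESeq2 and 1 with no tumor block, Treg against the Cd4+ Foxp3- gate from 3 to 1 with no tumor block, and neutrophils against monocytes from 4 to 7 with no filter, where more genes were tested. Arg1 against C1q macrophages went from 0 to 1 without cells of a hashtag ratio under 3 and 1 without the 10% of cells with the most UMIs. With the run as a replicate block the genotype count went from 0 to 1, Pdcd1lg2 in neutrophils, and changed no other member's call. Leaving out 1 tumor at a time gave 5 to 7 members (Treg against CD8 T cells), 2 to 4 (Treg against the Cd4+ gate), 7 to 8 (NK cells), 6 to 7 (Tcf7), 2 to 4 (cycling, 2 without Csf1r fl/fl replicate 1), 4 to 5 (both mature dendritic cells and neutrophils), 4 to 4 (C1q macrophages), 0 to 2 (Arg1 macrophages, 2 without Lyve1Cre Csf1r fl/fl replicate 2), 0 to 0 (genotype) and 0 to 1 (interaction, 1 without Csf1r fl/fl replicate 2). In C1q macrophages against monocytes the members changed without Csf1r fl/fl replicate 1, where Havcr2 lost its call and Lag3, not tested in the main fit, was called higher. A tumor left alone in its genotype was assumed to vary like the others. Directions reversed for Gzmb in C1q macrophages against monocytes (-0.83, against 0.18 with stricter gates and 0.19 without the 10% of cells with the most UMIs) and for Tox in cycling cells, which was not called (-0.17, against 0.0932 without that 10%). Over all genes, fewer were called with DESeq2 and with no tumor block for Treg against CD8 T cells (2687, against 1535 and 1667), Tcf7 (1398, against 746 and 642, and 742 with stricter gates), Treg against the Cd4+ gate (506, against 155 and 84), cycling (3241, against 1593 and 1922), C1q macrophages (2826, against 1678 and 1538) and Arg1 macrophages (673, against 375 and 386), and with DESeq2 for NK cells (2135, against 1251). Between genotypes 0 to 3 genes were called in a gate, 0 to 71 with no filter, 0 to 110 with the run as a replicate block (neutrophils 97) and 0 to 120 with 1 tumor left out, and for the interaction 1, against 49 with no filter and 0 to 77 with 1 tumor left out. Levels moved by more than the spread between tumors in 35 of 640 alternatives, and thinning moved 155 of 200 shares of cells. Depth limits Tigit most, with 792 UMIs over all kept cells, and 2 tumors a genotype limit every comparison of genotypes.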

Other observations

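Other genes of the pathway differed between myeloid gates and between states of CD8 T cells. In C1q macrophages against monocytes Ceacam1, a proposed TIM-3 ligand, was lower by -2.53 on the log2 scale, and in Arg1 against C1q macrophages Cd80, a ligand of CTLA-4 and CD28, was 0.98 higher and Ptpn6 -0.85 lower, all past the edgeR threshold. In cycling CD8 T cells Hmgb1 was 1.56 higher and Ifngr2 (-1.29), Id3 (-1.10) and Nt5e (-1.02) lower, and in Tcf7-positive CD8 T cells Nt5e (1.68) was higher while Entpd1, which acts before it on ATP, was lower.

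The ligands were also read in lymphocytes that held no UMI of the neutrophil and macrophage markers. In such CD8 T cells Cd274 measured 0.14, 0.32, 0.225 and 0.286 UMIs per 10000 (0.429, 0.41, 0.391 and 0.44 in the whole gate) and Pdcd1lg2 0.382, 0.377, 0.533 and 0.331. In such Treg Pdcd1lg2 measured 0.321, 0.545, 0.576 and 0.432, and their Cd274 is given with the comparison of Treg and CD8 T cells. In such NK cells Cd274 measured 0.428, 0.644, 0.475 and 0.232.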
